A study of Mus musculus with 2 samples.

Results

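Cytochrome P450 genes of families 1 to 4 were read across both libraries of the series. The members were chosen by symbol: every protein-coding gene named Cyp, then a number that begins with 1, 2, 3 or 4, a letter and a final number, except Cyp51. This took 90 of the 43346 genes in the tables. Of these, 75 belong to families 1, 2, 3 and 4. The other 15 belong to families with 2-digit numbers (11, 17, 19, 20, 21, 24, 26, 27, 39 and 46) that the same naming pattern takes in, and they are described apart where it matters. Another 10 protein-coding P450 symbols of the tables fell outside the pattern, among them Cyp7a1, Cyp8b1, Cyp4a12a and Cyp3a41a.

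P450 enzymes are heme proteins that insert an oxygen atom into lipids, steroids, vitamins, drugs and plant compounds. Most sit in the endoplasmic reticulum and take electrons from P450 reductase, while a few sit in mitochondria and take them from ferredoxin. In the gut the epithelium is the main site of the enzymes that oxidise swallowed compounds. Many of their genes are switched by ligand-activated receptors, such as AHR for family 1, CAR for Cyp2b, PXR for Cyp3a and PPARA for Cyp4a.

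The series holds 1 group, labelled large intestine: C57BL/6J mice, an inbred strain, adult and 8 weeks old, with no treatment named. Its 2 libraries are biological replicates 1 and 2. Each is labelled as pooled from males and females of a litter, and both stand under a single donor record, so the spread between them may not be that of separate animals. PolyA RNA longer than 200 nt was sequenced as stranded paired reads of 76 nt. With 1 group there is no comparison between conditions, and each difference below sets 1 library against 1, with no replicate check and no p-value.

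Replicate 1 had 50189619 expected counts and replicate 2 had 58233142. The 90 P450 genes took 151197 of them in replicate 1 and 89392 in replicate 2. The tissue label was checked against marker lists. Among 5 colonocyte markers, Car1 had 0.23 TPM in replicate 1, against 0.27 in replicate 2, Aqp8 had 0.04 TPM in both, and Atp12a had 0.01 TPM in both. Slc26a3 had 43.5 TPM in replicate 1 and 20.96 in replicate 2, and Saa1 had 3.22 and 355 TPM. All 6 markers of the proximal small intestine were above 1 TPM in both libraries, and their summed level was 2469 TPM in replicate 1, against 321 in replicate 2. The 3 ileum markers summed to 489 TPM in replicate 1 and 5422 in replicate 2. The 5 colonocyte markers summed to 46.96 TPM in replicate 1 and 376 in replicate 2. Car1, Aqp8 and Atp12a were near 0 in both libraries while small intestinal markers were present, and the libraries lay far apart in both small intestinal lists.

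The P450 genes share the heme-binding loop near the end of the protein, in which a cysteine holds the heme iron. The 30 coding bases of the loop are shown for some of the most abundant members and for members of other families, with the codon of that cysteine in capitals (GENCODE M21 transcripts, coding strand).
Cyp4f14: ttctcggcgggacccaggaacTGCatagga
Cyp4f40: ttctcagcggggccaaggaacTGCattgga
Cyp4b1: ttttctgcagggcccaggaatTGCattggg
Cyp2d26: ttctcagcaggccgcagatcaTGCctgggg
Cyp3a13: tttgggagtggaccaaggaacTGCattggc
Cyp1b1: ttctcagtgggcaaacggaggTGCatcggt
Cyp27a1: ttcggctatggggttcggtctTGCctgggt
Cyp26b1: tttggcggtggcgtgcggaccTGCctgggc
All 8 encode the consensus of Phe, any 2 residues, Gly, any residue, Arg, any residue, Cys, any residue, Gly. The consensus was found in the longest coding sequence of 85 of the 90 members, and its absence in Cyp2b10, Cyp2s1, Cyp3a59, Cyp20a1 and Cyp39a1 says only that these letters were not met. For Cyp2b10 the sequence searched was Cyp2b10-201, which had 0 counts in both libraries. Cyp2b10-202, with 98.45% of the gene's TPM in replicate 1 and 100% in replicate 2, was not searched. The cysteine codon was TGC in 53 members and TGT in 32. The 85 loops had 70 different base sequences, so some close relatives shared a loop exactly. The coding sequences of these 85 had a median of 503 codons, with a range of 338 to 546.

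P450 genes ranged from silent to abundant. A member was called detected at 1 TPM (transcript abundance corrected for length and library size) or more in both libraries. By this measure 23 of 90 were detected, where 29.9% of all 43346 genes and 56.2% of the 21474 protein-coding genes were. Another 5 reached 1 TPM in replicate 1 alone, and 62 stayed below 1 TPM in both. The 5 were Cyp2b10, Cyp2c55, Cyp2c66, Cyp2w1 and Cyp3a11. The members summed to 1773 TPM in replicate 1, against 800.1 in replicate 2 (1287 ± 688 TPM, SD, n = 2), which was 0.177% and 0.0800% of all TPM. The 5 members with the highest mean, Cyp4f14, Cyp4f40, Cyp4f16, Cyp2d26 and Cyp4b1, were also the 5 highest in replicate 1, where they held 76.7% of the sum, and they held 76.4% in replicate 2. In replicate 2 Cyp4f13 and Cyp2s1 stood above Cyp4b1 and Cyp2d26, and the 5 highest of that library held 80.1%.

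**Figure D1:**
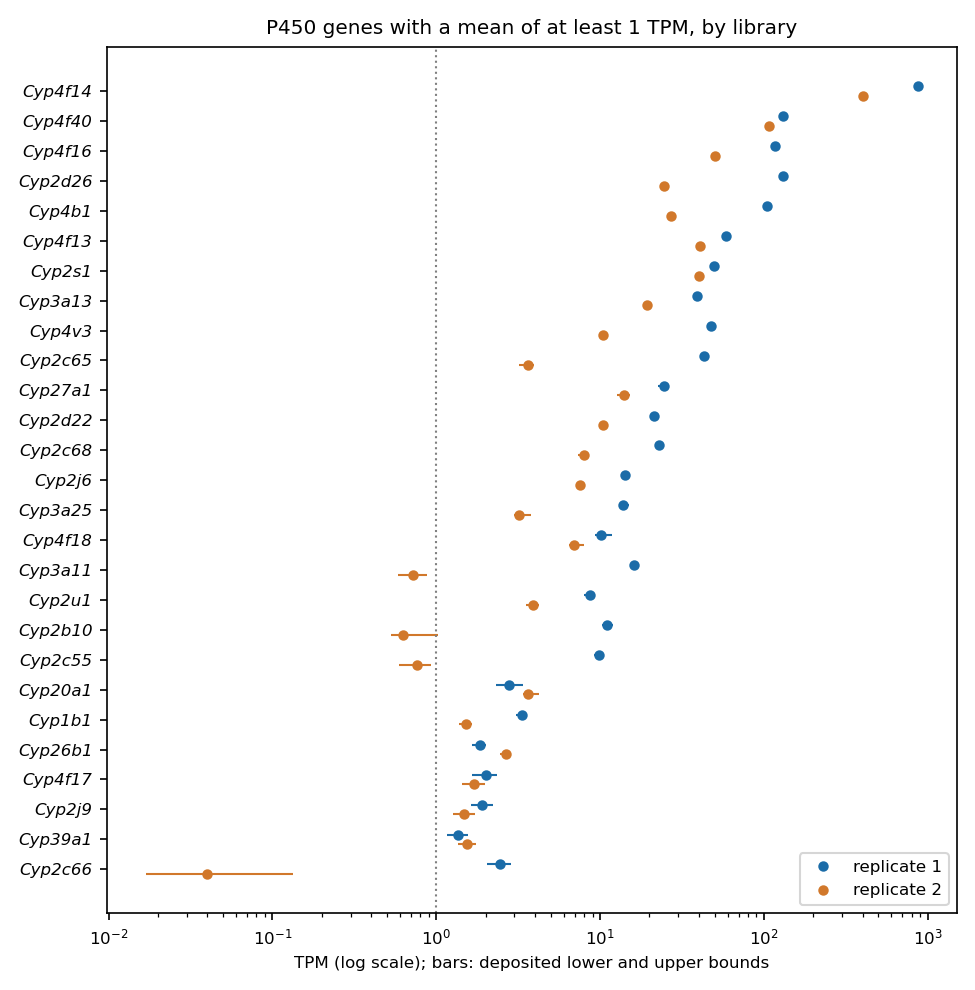
TPM (log scale) of the 27 P450 genes with a mean of at least 1 TPM, with a point per library and bars for the deposited lower and upper bounds on TPM; the dotted line marks 1 TPM. Cyp4f14 stands highest in both libraries, and Cyp3a11, Cyp2b10, Cyp2c55 and Cyp2c66 lie below the line in replicate 2 alone.

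Family 4, whose enzymes hydroxylate fatty acids and eicosanoids at the far end of the chain, gave most of the P450 transcripts. Its 17 genes summed to 1348 TPM in replicate 1 and 647 in replicate 2, and 8 of them were detected. The Cyp4f subfamily alone held 67.4% of the P450 sum in replicate 1 and 76.2% in replicate 2. Cyp4f14 (chr17:32905070-32917342, mm10), a hydroxylase of leukotriene B4 and of vitamin E, had 876 TPM from 77366 expected counts in replicate 1 and 401 TPM from 46188 in replicate 2. It was the highest P450 gene in both libraries and its rank among protein-coding genes was 123 in replicate 1 and 250 in replicate 2. Its log2 ratio of replicate 1 over replicate 2 was 1.13 (639 ± 336 TPM, SD, n = 2).

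Cyp4f14 and its neighbours stand side by side on chromosome 17, in a run of 8 Cyp4f genes (chr17:32452723-32947402), and they did not move by equal amounts. Cyp4f40 had 131.6 TPM in replicate 1, against 107.8 in replicate 2, and Cyp4f13 had 58.3 and 40.8 TPM. Cyp4f16 had 116.4 TPM in replicate 1 and 50.5 in replicate 2. The log2 ratios were 1.19 for Cyp4f16, 0.50 for Cyp4f13 and 0.29 for Cyp4f40, so Cyp4f40, between Cyp4f16 and Cyp4f14 on the chromosome, had the smallest of these. Cyp4f17 had 2.00 TPM in replicate 1, against 1.70 in replicate 2. Cyp4f39, known for the omega-hydroxylation of very long fatty acids of the skin barrier, stayed at 0.52 and 0.36 TPM. Cyp4f15 and Cyp4f37 were below 1 TPM in both libraries as well. Cyp4f18, on chromosome 8 and known as a leukotriene hydroxylase of neutrophils, had 10.1 TPM in replicate 1 and 6.89 in replicate 2.

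Outside Cyp4f, family 4 was led by Cyp4b1, a fatty acid hydroxylase also known for activating lung and kidney toxicants. It had 104.5 TPM in replicate 1, against 27.0 in replicate 2 (log2 ratio 1.91). Cyp4v3, another fatty acid hydroxylase, had 47.9 TPM in replicate 1 and 10.4 in replicate 2 (log2 ratio 2.10). Both were higher in replicate 1 by more than any Cyp4f gene. The Cyp4a subfamily, the classic PPARA targets of mouse liver, was close to silent: its 5 genes summed to 0.08 TPM in replicate 1, against 0 in replicate 2, and Cyp4a14, Cyp4a31 and Cyp4a32 had 0 counts in both. Ppara itself, a fatty acid receptor, had 9.66 TPM in replicate 1 and 4.34 in replicate 2. PPARA targets outside the P450 genes were present, with 6 of 7 detected, where 56.2% of all protein-coding genes were.

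**Figure D2:**
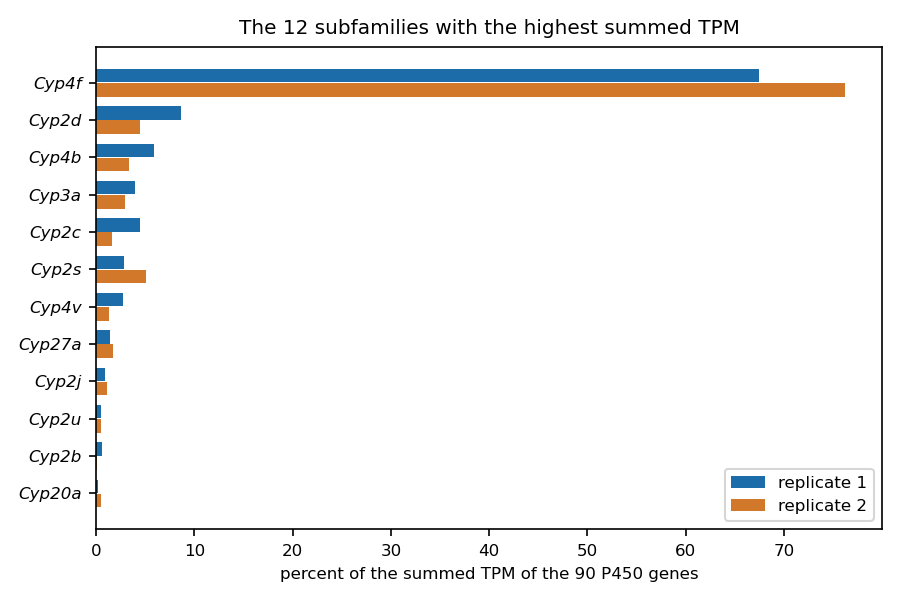
Share of the summed TPM of the 90 P450 genes (percent, linear axis) held by each of the 12 subfamilies with the highest sums, with a bar per library. Cyp4f holds 67.4% in replicate 1 and 76.2% in replicate 2, and no other subfamily reaches 10%.

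Family 2, the largest with 48 genes, had 8 detected members and summed to 320 TPM in replicate 1 and 105 in replicate 2. Cyp2d26 (chr15:82790101-82794294) led it with 130.8 TPM from 8296 counts in replicate 1 and 24.65 TPM from 2038 counts in replicate 2, a log2 ratio of 2.36. Cyp2d22, often set beside the human drug-metabolising CYP2D6, had 21.4 TPM in replicate 1, against 10.4 in replicate 2. Of the other 6 Cyp2d genes none reached 1 TPM, and those of them with any counts were higher in replicate 2: Cyp2d10 had 0.08 TPM in replicate 1 and 0.33 in replicate 2, and Cyp2d12 had 0.05 and 0.38 TPM, from 3 and 31 counts. The ends of the Cyp2d run were thus expressed, with near silence between them. Cyp2s1, an epithelial P450 that dioxin induces, differed little, with 49.9 TPM in replicate 1, against 40.3 in replicate 2 (log2 ratio 0.30).

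The Cyp2c enzymes make epoxy and hydroxy products of arachidonic acid. Cyp2c65 and Cyp2c68 were detected in both libraries, and Cyp2c55 and Cyp2c66 reached 1 TPM in replicate 1 alone. Cyp2c65, known from the mouse gut, had 43.2 TPM from 3281 counts in replicate 1 and 3.62 TPM from 358 counts in replicate 2, a log2 ratio of 3.26. Cyp2c55 had 9.89 TPM in replicate 1 and 0.76 in replicate 2 (log2 ratio 2.63). These genes are adjacent, and the third gene of the block, Cyp2c66, had 2.45 TPM in replicate 1, against 0.04 in replicate 2. Cyp2c68, further along the same chromosome, was higher in replicate 1 by less, with 22.95 TPM in replicate 1 and 7.93 in replicate 2 (log2 ratio 1.42). All 11 other Cyp2c genes stayed below 1 TPM in both libraries, and Cyp2c37, Cyp2c38, Cyp2c39 and Cyp2c54 had 0 counts in both. Cyp2c23, a renal epoxygenase and the highest of the 11, had 0.79 TPM in replicate 1, against 0.39 in replicate 2.

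Among the remaining family 2 genes, Cyp2b10, the standard target of CAR, had 11.1 TPM from 826 counts in replicate 1 and 0.63 TPM from 62 counts in replicate 2, a log2 ratio of 2.89. The other 4 Cyp2b genes were below 1 TPM. Cyp2j6, known from the mouse intestine, had 14.25 TPM in replicate 1 and 7.58 in replicate 2, and its neighbour Cyp2j9 had 1.91 and 1.48 TPM. Cyp2u1, a long-chain fatty acid hydroxylase, had 8.68 TPM in replicate 1, against 3.91 in replicate 2. Cyp2w1, an enzyme known from the fetal gut and colon tumours, had 1.16 TPM in replicate 1 and 0.68 in replicate 2. The ethanol-oxidising Cyp2e1 was below 1 TPM in both and lower in replicate 1, with 0.50 TPM from 36 counts, than in replicate 2, with 0.99 TPM from 92 counts. Cyp2r1, which starts the activation of vitamin D, had 0.36 TPM in replicate 1, against 0.39 in replicate 2. The 4 Cyp2a genes summed to 0.11 TPM in replicate 1 and 0.04 in replicate 2.

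Family 3, the main drug-oxidising P450s of liver and gut, summed to 69.2 TPM in replicate 1, against 23.5 in replicate 2. Cyp3a13, which stands apart from the other Cyp3a genes on chromosome 5, was the highest, with 39.2 TPM in replicate 1 and 19.2 in replicate 2 (log2 ratio 0.99). Cyp3a11, the standard PXR target, had 16.1 TPM from 1520 counts in replicate 1 and 0.72 TPM from 89 counts in replicate 2. Its log2 ratio of 3.31 was the largest among the P450 genes with the pseudocount of 1 TPM, while with 5 TPM it was 1.88, below Cyp2c65 at 2.48. Cyp3a25 had 13.8 TPM in replicate 1, against 3.22 in replicate 2 (log2 ratio 1.81). The order of the 3 genes in replicate 1, Cyp3a13, Cyp3a11 and Cyp3a25, became Cyp3a13, Cyp3a25 and Cyp3a11 in replicate 2. Cyp3a44 stayed low, with 0.05 TPM in replicate 1 and 0.31 in replicate 2, and Cyp3a16 and Cyp3a57 had 0 counts in both.

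Family 1, the AHR-responsive P450s, was low. Cyp1b1, which oxidises estrogens and aromatic hydrocarbons, had 3.34 TPM in replicate 1, against 1.52 in replicate 2. Cyp1a1, the most inducible AHR target of the gut epithelium, had 0.28 TPM from 30 counts in replicate 1 and 0.03 TPM from 4 counts in replicate 2. Cyp1a2, a liver enzyme, had 0 counts in replicate 1 and 2 counts in replicate 2. Ahr itself had 4.09 TPM in replicate 1 and 1.82 in replicate 2. Of 5 other AHR targets or repressors 3 were detected: Nqo1, a quinone reductase, with 22.6 TPM in replicate 1, against 13.9 in replicate 2, Tiparp and Ugt1a6a. None of the 4 with a mean of at least 1 TPM was 2-fold apart. The fifth, Aldh3a1, had 0.13 TPM in replicate 1 and 0.32 in replicate 2. Over all protein-coding genes 56.2% were detected.

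The 15 genes of the 2-digit families summed to 31.97 TPM in replicate 1 and 22.7 in replicate 2, and 4 were detected. Most of this came from Cyp27a1, the mitochondrial enzyme that starts the acidic route of bile acid synthesis, with 24.5 TPM in replicate 1, against 14.0 in replicate 2. The other 3 had ratios below 0. Cyp20a1, an orphan P450, had 2.77 TPM in replicate 1 and 3.63 in replicate 2. Cyp26b1, which degrades retinoic acid, had 1.84 and 2.65 TPM, and Cyp39a1, an oxysterol hydroxylase, had 1.36 and 1.55 TPM. The deposited bounds of the libraries were apart for Cyp26b1 and overlapped for Cyp20a1 and Cyp39a1.

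The vitamin D and steroid enzymes of these families were low. Cyp24a1, the vitamin D catabolic enzyme that the vitamin D receptor induces, had 0 counts in both libraries, although Vdr, the receptor, had 125 TPM in replicate 1, against 76.4 in replicate 2. S100g, an intestinal calcium carrier and vitamin D target, had 0.76 TPM in replicate 1 and 5.05 in replicate 2, and Trpv6, a calcium channel, had 0.01 and 0.04 TPM. Cyp27b1, which completes vitamin D activation, had 0.16 and 0.22 TPM. Cyp11a1, which opens steroid synthesis, had 0.39 TPM in replicate 1, against 0.06 in replicate 2. Cyp17a1, of androgen synthesis, had 0.62 and 0.18 TPM. Aromatase (Cyp19a1) and Cyp11b2, of aldosterone synthesis, had 0 counts in both. None of 4 markers of steroidogenic cells, Cyp11a1 among them, reached 1 TPM, and they summed to 0.99 TPM in replicate 1 and 0.29 in replicate 2.

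In all, 21 of the 90 members had 0 expected counts in both libraries. A floor of 3 counts puts their levels below 0.0203 to 0.0736 TPM in replicate 1 and below 0.0155 to 0.0565 TPM in replicate 2, depending on gene length and for counting error only. The deposited upper bounds of these genes reached 0.267 TPM in replicate 1 and 0.206 in replicate 2, both in Cyp4a31. The 21 were Cyp2a22, Cyp2b9, Cyp2b19, Cyp2b23, Cyp2c37, Cyp2c38, Cyp2c39, Cyp2c54, Cyp2d11, Cyp2g1, Cyp2j7, Cyp2j11, Cyp2t4, Cyp3a16, Cyp3a57, Cyp4a14, Cyp4a31, Cyp4a32, Cyp11b2, Cyp19a1 and Cyp24a1. Those in Cyp2b, Cyp2c, Cyp2d, Cyp2j and Cyp3a have a relative in the subfamily that reached 1 TPM in at least 1 library.

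Most P450 genes lie in tandem runs, and the level changed sharply from gene to gene within a run. Runs of at least 4 members with gaps of at most 500 kb numbered 7 and held 64 members, of which 14 were detected. Outside the runs 9 of 26 members were detected. Detection was 5 of 8 in the Cyp4f run on chromosome 17 and 2 of 8 in the Cyp2d run on chromosome 15 (chr15:82370527-82794294). It was 2 of 14 in the Cyp2c run on chromosome 19 (chr19:39007019-40187333) and 2 of 8 in the Cyp2j run on chromosome 4 (chr4:96027534-96664154). In each of the other 3 runs 1 gene was detected in both libraries: Cyp4b1 at the end of the Cyp4x and Cyp4a genes on chromosome 4 (chr4:115106323-115647723), Cyp3a25 on chromosome 5 (chr5:145345279-146113287) and Cyp2s1 on chromosome 7 (chr7:25802475-27158668).

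**Figure D3:**
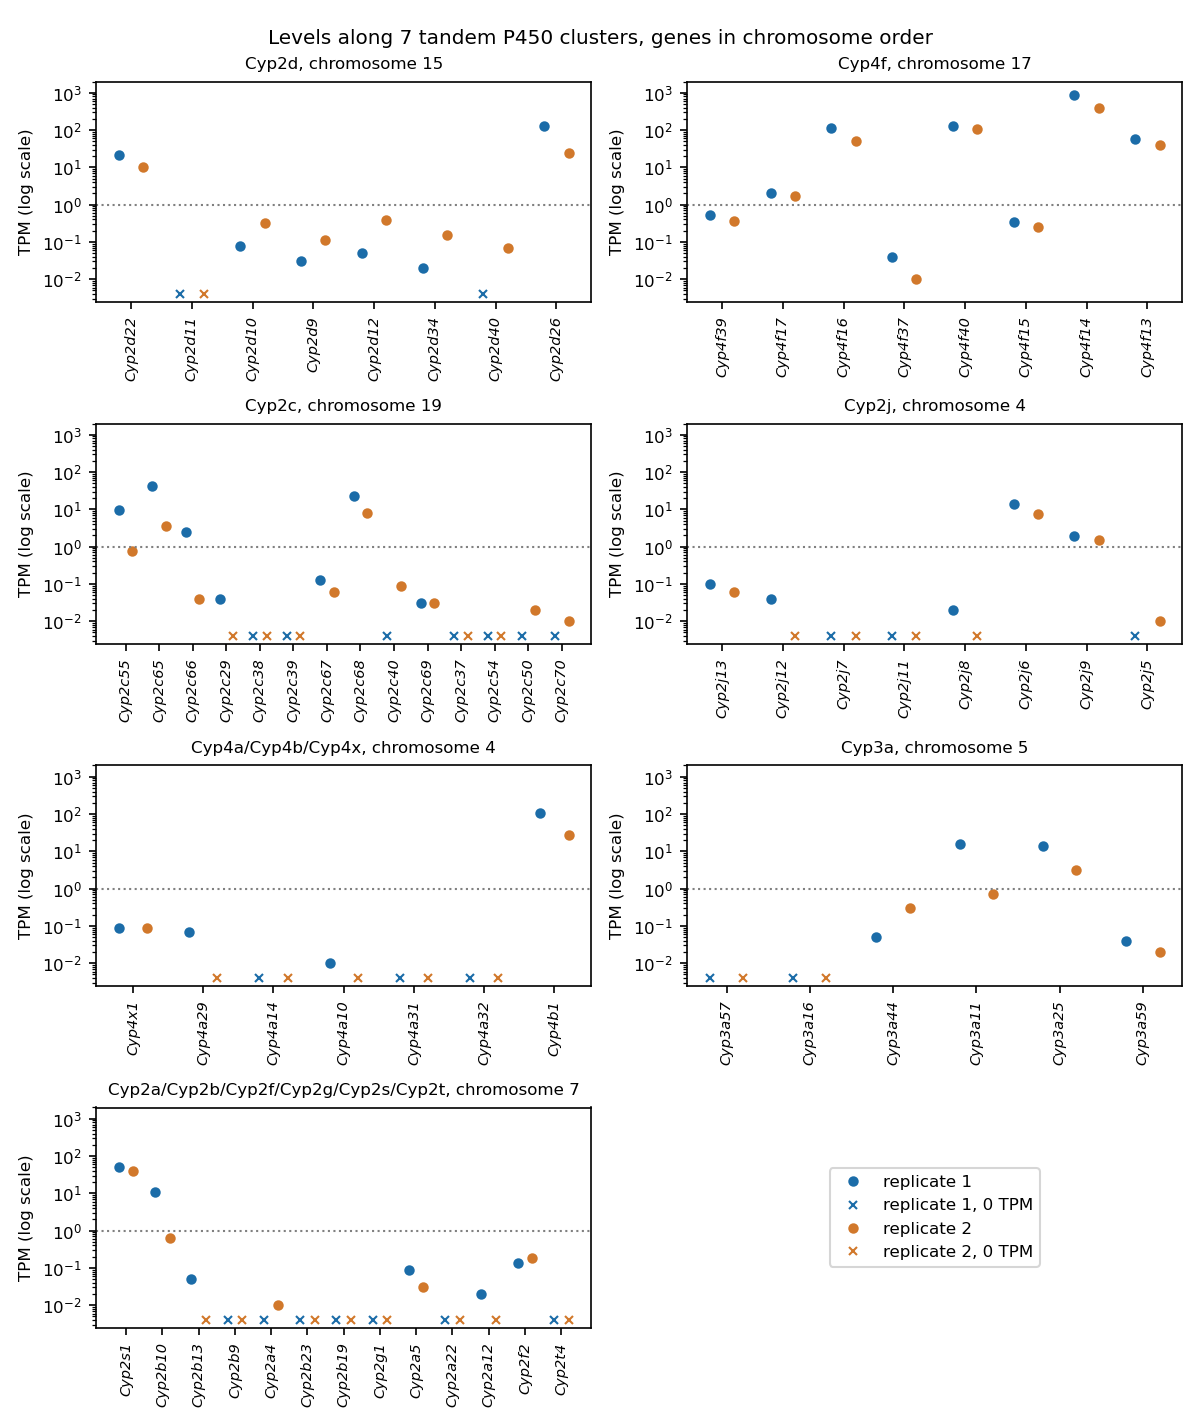
TPM (log scale) along the 7 tandem runs, 1 panel per run, genes in chromosome order, with a point per library and a cross at the foot of the panel for 0 TPM; the dotted line marks 1 TPM. Abundant genes stand next to low or silent ones, as Cyp4f14 beside Cyp4f15, at 0.34 and 0.25 TPM, and Cyp4b1 beside Cyp4a32, at 0 counts.

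Neighbours in these runs are often near copies, so how reads were shared between them limits some values. Each stretch of 76 bases, the read length, in a gene's annotated transcripts was looked for in the transcripts of other genes. Of the 27 members with a mean of at least 1 TPM, 11 shared no stretch and 4 shared at least 10%. These 4 were Cyp2c68 with 28.1%, most with Cyp2c40, Cyp2c65 with 11.2% and Cyp2c66 with 10.6%, each most with the other, and Cyp4f16 with 10.3%, most with Cyp4f37. Reads from these stretches could belong to either gene, which makes the values less certain, but the share does not measure the error in TPM. Cyp2c40 itself, at 42.0% shared, had 0 TPM in replicate 1, but its deposited bounds there ran up to 0.805 TPM. Cyp4f14 shared 0.128% of its stretches and Cyp2d26 3.63%.

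Replicate 1 was the higher library for nearly all expressed P450 genes. Ratios were taken as log2((TPM + 1) in replicate 1 / (TPM + 1) in replicate 2) over the 27 members with a mean of at least 1 TPM. Of these, 12 were at least 2-fold higher in replicate 1, where 4.46% of the 13512 genes with that mean were. None was at least 2-fold higher in replicate 2, where 1.18% of all genes were. The 12 were Cyp2b10, Cyp2c55, Cyp2c65, Cyp2c66, Cyp2c68, Cyp2d26, Cyp3a11, Cyp3a25, Cyp4b1, Cyp4f14, Cyp4f16 and Cyp4v3. Of the 12, Cyp2b10, Cyp2c55, Cyp2c66 and Cyp3a11 were below 1 TPM in replicate 2, so they entered the count through replicate 1 alone and had to differ. Among the 23 members at 1 TPM or more in both libraries, 8 were at least 2-fold higher in replicate 1, where 4.08% of the 12949 such genes were, and none in replicate 2, where 0.803% were. This restriction was chosen after seeing the data. The ratio was above 0 for 24 of the 27, and for all 23 that belong to families 1 to 4, where 66.5% of all genes with that mean were above 0. Both counts include Cyp2b10, Cyp2c55, Cyp2c66 and Cyp3a11, which had to lie above 0.

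The median ratio of the P450 genes was 0.98, beside 0.14 for all genes, a gap of 0.83. The 0.98 includes the 4 members that reached the mean through replicate 1 alone. Among members at 1 TPM or more in both libraries, a restriction chosen after seeing the data, the median was 0.83. All genes ran from -0.46 at the 5th percentile to 0.96 at the 95th. The median was 1.13 in families 1 to 4 and -0.20 in the 4 expressed genes of the 2-digit families. The 1.13 also includes the 4 members that reached the mean through replicate 1 alone, which raises it. All 4 expressed genes of the 2-digit families were at 1 TPM or more in both libraries, so these 2 medians are not like for like. The summed level was 2.22 times as high in replicate 1 as in replicate 2 over all members, 2.25 times without Cyp4f14, 3.04 times in family 2, 2.95 times in family 3 and 2.08 times in family 4. The deposited bounds on TPM did not overlap between the libraries for 23 of the 27 members, against 56.9% of all genes. Cyp2b10, Cyp2c55, Cyp2c66 and Cyp3a11 are among these 23, and they passed the filter through replicate 1 alone. No source used here states the level of these bounds, and the TPM of Cyp4f14 in replicate 1 lay just above its own upper bound of 874.6.

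Markers of gut regions also differed between the libraries, with the proximal small intestine and ileum lists in opposite directions. The marker lists were chosen with earlier results of these data known. All 6 proximal small intestine markers were at least 2-fold higher in replicate 1, with a median log2 ratio of 3.12. Over all genes with a mean of at least 1 TPM, 4.46% were at least 2-fold higher in replicate 1 and 1.18% in replicate 2. Lactase (Lct) had 151.7 TPM in replicate 1, against 9.94 in replicate 2, and Fabp1, a fatty acid carrier, had 105.8 and 5.60 TPM. All 3 ileum markers were at least 2-fold lower in replicate 1, with a median of -3.46, and Fabp6, the ileal bile acid carrier, had 477 TPM in replicate 1 and 5279 in replicate 2. Colonocyte markers went both ways, with log2 ratios of 1.02 for Slc26a3 and -6.40 for Saa1. The part of gut region in the P450 ratios was not tested. In whole tissue, fewer cells of a type and less RNA per cell cannot be told apart.

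**Figure D4:**
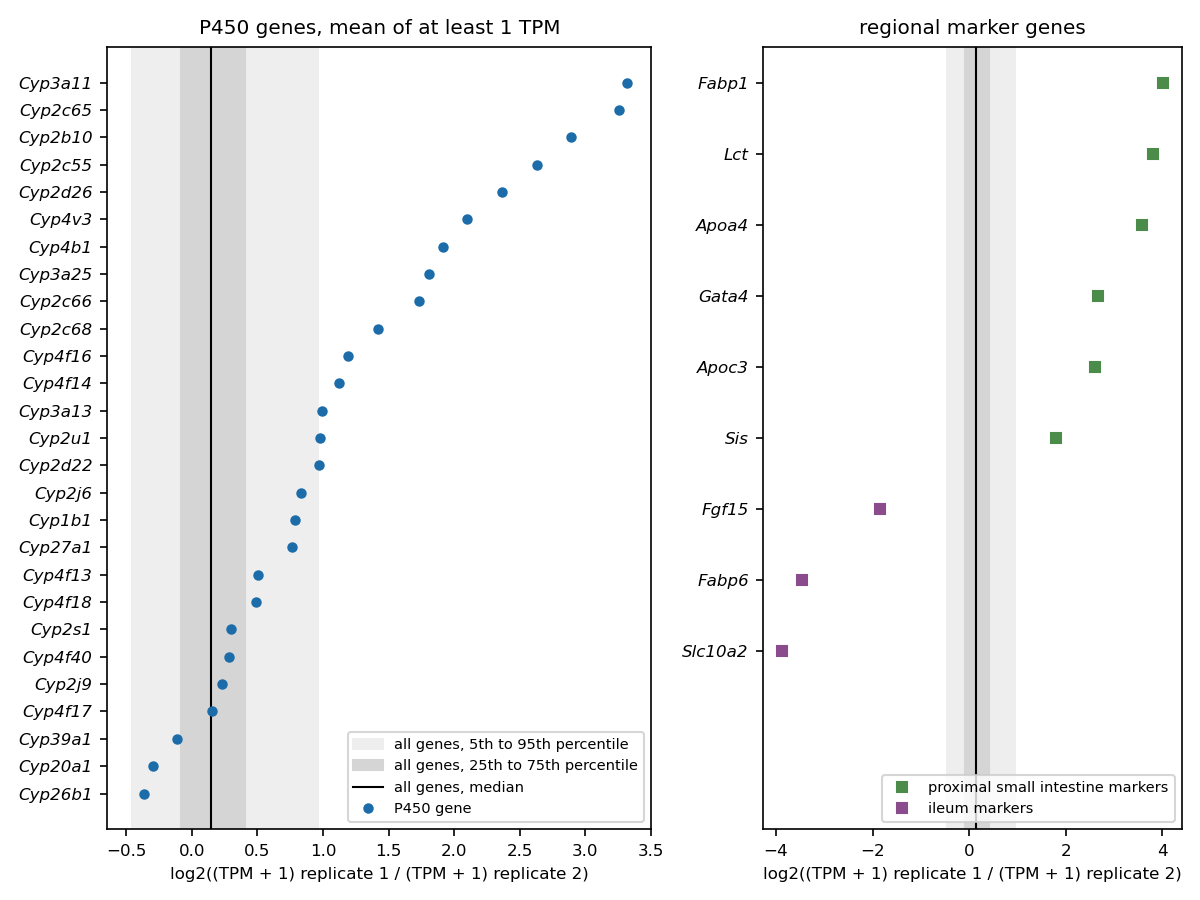
Log2 ratio of replicate 1 over replicate 2, on TPM + 1, for the 27 P450 genes with a mean of at least 1 TPM (left) and for 9 regional markers (right); grey bands and the black line give the percentiles and the median of all 13512 genes. P450 genes lie mostly to the right of the median of 0.14, with Cyp3a11 at 3.31, in the range of the proximal small intestine markers, which run from 1.80 to 4.02.

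Other cell types were read from shorter marker lists. The 5 epithelial markers summed to 8023 TPM in replicate 1, against 6892 in replicate 2, and 1 of them, Vil1, was past 2-fold. The 3 smooth muscle markers summed to 2187 and 2521 TPM, although Myh11 alone had 89.6 and 46.3 TPM, the 3 macrophage markers to 49.5 and 38.3 TPM, and the 3 endothelial markers to 31.3 and 23.5 TPM. Liver is the organ best known for these enzymes, and of 7 hepatocyte markers 2 were detected, Ttr and Cps1. Ttr had 3.61 TPM in replicate 1 and 4.58 in replicate 2. Alb was at 0.72 and 0.44 TPM, Serpina1a at 1.49 and 0.13 TPM, Apoa2 at 1.40 and 0.41 TPM, Ahsg at 0.41 and 0.15 TPM, and Fgb at 0 and 0.06 TPM. Cps1, which gut epithelium also makes, supplied 154 of the 162 TPM of that list in replicate 1 and 88.3 of the 94.1 TPM in replicate 2. The part of these markers in the P450 ratios was not tested.

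The partners of the P450 enzymes were expressed in both libraries, and their median ratio was below that of the enzymes. All 8 redox partners in the tables were detected, where 56.2% of protein-coding genes were. Their summed level was 829 TPM in replicate 1, against 529 in replicate 2, and their median log2 ratio was 0.56. The P450 genes at 1 TPM or more in both libraries, a restriction chosen after seeing the data, had a median of 0.83. Por, the reductase of the endoplasmic reticulum, had 85.3 TPM in replicate 1 and 45.4 in replicate 2. Cyb5a, cytochrome b5, had 315 and 222.5 TPM. Cyb5r3, the reductase of cytochrome b5, was the only one of the 8 at the 2-fold limit, with 159 and 79.2 TPM (log2 ratio 1.00). The mitochondrial donors Fdx1 and Fdxr differed little, with 18.95 and 16.7 TPM for Fdx1 and 8.94 and 8.17 TPM for Fdxr.

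All 8 genes of heme synthesis were detected and none was 2-fold apart, with a median log2 ratio of 0.27. Alas1, the first enzyme of the route, had 92.2 TPM in replicate 1, against 70.5 in replicate 2. Among 17 receptors and partners that switch P450 genes 16 were detected, with a median of 0.44, and 2 were at least 2-fold higher in replicate 1. These were Nr1i3, the gene of CAR, with 17.2 TPM in replicate 1 and 3.08 in replicate 2, and Hnf4g, an intestinal nuclear receptor, with 92.9 and 27.1 TPM. Nr1i2, the gene of PXR, had 46.8 and 36.8 TPM, and Hnf4a had 351 and 271 TPM. Among 7 retinoid genes 2 were at least 2-fold higher in replicate 1: Rbp2, the retinol carrier of the small intestine, with 367 and 56.5 TPM, and Rdh7, a retinol dehydrogenase, with 29.1 and 3.38 TPM. Of the 7 PPARA targets 2 were at least 2-fold higher in replicate 1: Creb3l3, with 122 and 31.2 TPM, and Angptl4, with 55.8 and 17.8 TPM. Beside the counts of these short lists, 56.2% of all protein-coding genes were detected. Of all genes with a mean of at least 1 TPM, 4.46% were at least 2-fold higher in replicate 1.

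Of the 27 expressed members, 14 had several annotated transcripts, 50 in all, and the authors' percent of each gene's TPM was read for each. In Cyp4v3 the second transcript is annotated to Klkb1 in GENCODE M21, and it held 0.20% in replicate 1 and 0% in replicate 2. The same transcript led in both libraries in 12 of 14 genes, the exceptions being Cyp2c66 and Cyp3a25. Cyp4f14 was split between 2 coding transcripts: Cyp4f14-202 held 79.0% in replicate 1 and 82.6% in replicate 2, and Cyp4f14-201 held 20.97% and 17.4%. Cyp4b1-201 held 83.9% and 84.96%, and Cyp2s1-201 held 90.7% and 94.8%. Cyp4f16 was the most divided, with Cyp4f16-201 at 46.8% and 47.2% and Cyp4f16-208 at 31.05% and 26.1%.

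Some genes gave much of their TPM to transcripts annotated as not coding. Retained introns held 43.0% of Cyp27a1 in replicate 1 and 48.9% in replicate 2. Cyp27a1-203, the larger in both libraries, held 39.5% in replicate 1 and 25.8% in replicate 2, and Cyp27a1-202 held 3.53% and 23.2%. They are short, at 645 and 784 bases, against 1892 for the coding Cyp27a1-201. Cyp27a1-203 had 186 and 90.1 expected counts and Cyp27a1-202 had 21.9 and 107, against 1039 and 694 for Cyp27a1-201. In Cyp3a25, a transcript annotated as a target of nonsense-mediated decay held 24.2% in replicate 1 and 50.6% in replicate 2. Its level was 3.35 TPM in replicate 1, against 1.63 in replicate 2, and that of the coding Cyp3a25-201 was 10.4 and 1.59 TPM. The coding form therefore differed more than the gene as a whole. In Cyp2c66 the decay target held 27.8% in replicate 1 and 100% in replicate 2, the second from 3.72 counts, which is too few to read a share.

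**Figure D5:**
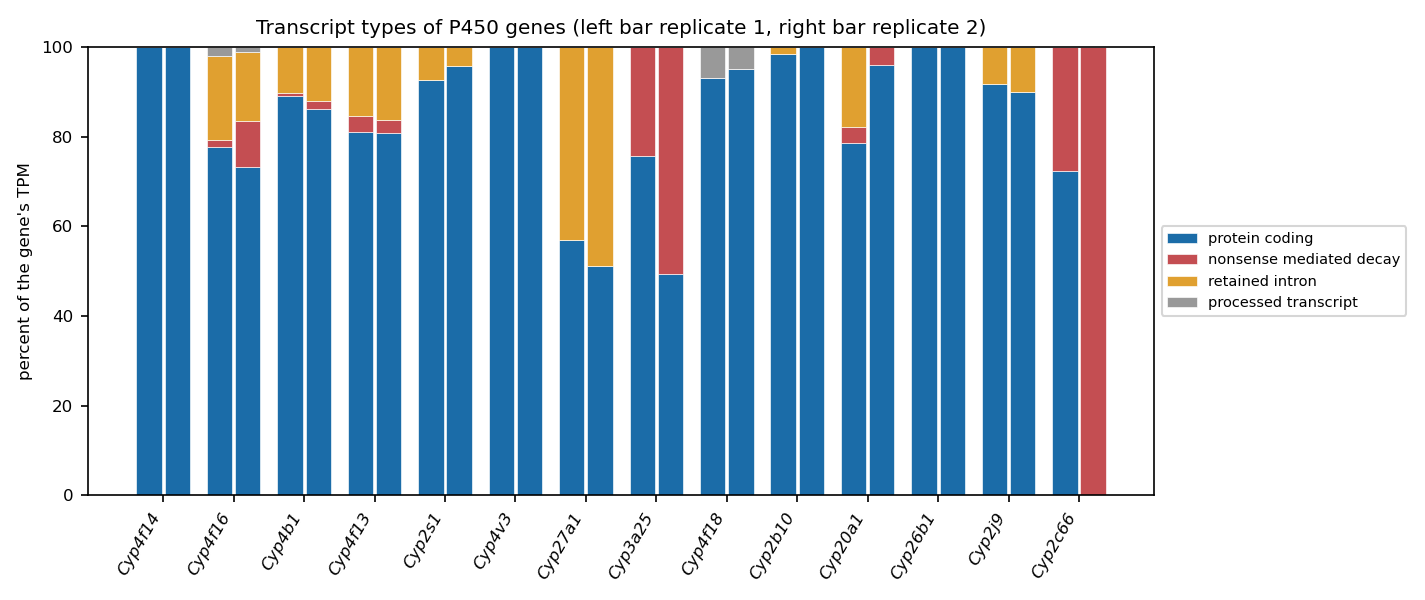
Percent of each gene's TPM by transcript type for the 14 P450 genes that have several annotated transcripts (mean TPM of 1 or more), with replicate 1 as the left and replicate 2 as the right bar of each pair. Coding transcripts hold all of Cyp4f14, 57.0% and 51.05% of Cyp27a1, and 75.8% and 49.4% of Cyp3a25; Cyp2c66 in replicate 2 rests on 3.72 counts.

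Promoters (250 bases before to 50 after the start, RefSeq, GRCm38.p6) were matched for 71 of the 90 members, and short motifs were searched on both strands. A match describes the letters and shows no binding. The TATA box TATAAA stood in the promoters of 30 of 71 members (42.3%). Counted by promoter, 31 of the 81 member promoters held it, where 13.6% of all 32851 promoters did. It was present in 3 of 19 detected members and 27 of 52 others, counted at any position of the window. In the 3 detected members it began at -139 (Cyp26b1), at -162 (Cyp2c65) and, on the other strand, at -31 (Cyp2d26). The AHR core GCGTG stood in 15 of 71 members, 21.1%. Counted by promoter, it was in 16 of the 81 member promoters and in 32.4% of all promoters. It was present in 7 of 19 detected members and 8 of 52 others. Its holders included Cyp1a1 and Cyp4f14, which lay far apart in level. In Cyp4f14 it stood in 1 of 4 promoters, where it began at -237. Detected members had a median of 4 CpG pairs in the promoter and other members 2, both below the median of 7 over all promoters.

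The HNF4 half-site CAAAGTCCA was found in 8 of 71 members (11.3%). Counted by promoter, it stood in 8 of the 81 member promoters and in 0.475% of all promoters. The 8 windows of 59 bases follow, with the half-site in capitals, because members with very different levels share it.
Cyp2c65, chr19:39060865-39060923, plus strand: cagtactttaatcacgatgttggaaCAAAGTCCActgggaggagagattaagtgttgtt
Cyp2c67, chr19:39649134-39649192, minus strand: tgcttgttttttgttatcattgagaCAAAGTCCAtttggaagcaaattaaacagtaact
Cyp2c68, chr19:39741145-39741203, minus strand: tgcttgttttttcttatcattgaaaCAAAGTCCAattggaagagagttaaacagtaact
Cyp2c40, chr19:39812826-39812884, minus strand: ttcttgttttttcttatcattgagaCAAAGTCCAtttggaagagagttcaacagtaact
Cyp2c69, chr19:39886811-39886869, minus strand: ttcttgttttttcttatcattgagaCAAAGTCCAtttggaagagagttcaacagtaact
Cyp2c70, chr19:40187317-40187375, minus strand: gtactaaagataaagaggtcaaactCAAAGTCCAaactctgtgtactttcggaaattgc
Cyp3a11, chr5:145879930-145879988, minus strand: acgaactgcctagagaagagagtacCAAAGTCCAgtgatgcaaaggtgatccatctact
Cyp3a16, chr5:145469789-145469847, minus strand: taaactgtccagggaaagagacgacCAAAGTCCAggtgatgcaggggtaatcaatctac
The site began between positions -125 and -45, counted from the start. Among its holders, Cyp2c65 and Cyp2c68 were detected in both libraries and Cyp3a11 in replicate 1. Cyp2c67, Cyp2c40, Cyp2c69 and Cyp2c70 were at 0.13 TPM or less, and Cyp3a16 had 0 counts. The windows of Cyp2c40 and Cyp2c69 were identical, and the window of Cyp2c68, at 22.95 TPM in replicate 1 and 7.93 in replicate 2, differed from them at 4 of 59 bases.

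The direct repeat of AGTTCA spaced by 5 bases, the form bound by retinoic acid receptors, was found in the promoter of 1 member, Cyp26a1, and in 0.0244% of all promoters. The window shows the repeat in capitals, which reads on the other strand.
Cyp26a1, chr19:37697751-37697817, plus strand: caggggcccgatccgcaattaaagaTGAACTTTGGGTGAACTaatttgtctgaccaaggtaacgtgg
Cyp26a1, which degrades retinoic acid and is induced by it, had 0.04 TPM from 3 counts in replicate 1 and 0.01 TPM from 1 count in replicate 2. The retinoic acid receptor Rara had 24.1 TPM in replicate 1, against 20.5 in replicate 2. Direct repeats spaced by 3 or by 1 and the everted repeat spaced by 6, searched in their consensus forms, were in no member promoter of this length. Of all 32851 promoters only 2, 13 and 2 held them, so their absence says little about the members.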

How the data were processed

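PolyA RNA-seq tables of 2 libraries were used as the authors deposited them, on build mm10 with GENCODE M4 per the accompanying notes. No source used here names the program or its version. The deposited expected counts are estimates by the authors and need not be whole. The deposited TPM corrects for effective length and sums to the same total in each library. The deposited FPKM served as an alternative. Bounds on TPM are a deposited signal column. The percent of a gene's TPM that falls to each transcript is the authors' own.

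Symbols, biotypes, positions and transcripts came from GENCODE M21, and 42462 of 43346 genes had a symbol. Ratios used a pseudocount of 1 TPM and genes with a mean of at least 1 TPM, which understates the ratio of low genes. Members and lists were chosen with earlier results of these data known. The text names members with a mean of at least 1 TPM, the highest of each subfamily or others given by family, those at 0 counts or 2-fold apart, and list genes. The ratio step was tested on simulated data. As alternatives, rounded expected counts were rescaled in R 4.3.3 by the TMM factors of edgeR 4.0.16 and by the size factors of DESeq2 1.42.0. Tables and plots were made in Python 3.11.15 with pandas 2.3.3, numpy 2.4.6 and matplotlib 3.10.9. Junction and contig lists on mm9 were not used here. The heme loop was read from translated coding sequences.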

Additional observations from a re-analysis of the deposited data

How the results depend on the processing

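No paired analysis was possible because the series holds 1 group. At a minimum of 5 TPM in both libraries 14 members were detected in place of 23, and with no filter on low values the median log2 ratio was 0, since 62 members were below 1 TPM in both. Leaving out a library moved the number detected between 23 and 28 and the summed level between 800.1 and 1773 TPM. With other pseudocounts, filters on the mean, units, estimates and scalings, the count at least 2-fold higher in replicate 1 ran from 10 (TMM or median-ratio scaling) to 16 (pseudocount of 0.1), and the count higher in replicate 2 was 0 in each. The shares of all genes moved as well. From a pseudocount of 5 to a pseudocount of 0.1, they ran from 2.45% to 6.71% for replicate 1 and from 0.636% to 1.69% for replicate 2. Restricted to members at 1 TPM or more in both libraries, an alternative chosen after seeing the data, 8 were at least 2-fold higher in replicate 1. The share among all such genes was 4.08%, and the median of those members was 0.83. TMM scaling gave a median ratio of -0.01 over all genes and 0.88 over the members, with 2.63% of all genes at least 2-fold higher in replicate 1. Of the 12 members 2-fold apart, 9 stayed so in the 7 settings of pseudocount, estimate, unit and scaling. The exceptions were Cyp4f14 (0.95 to 1.16), Cyp4f16 (0.97 to 1.22) and Cyp2c66, at 0.56 with a pseudocount of 5. No member's ratio changed sign in these settings. Depth limits genes with a few counts, such as Cyp1a1 in replicate 2.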
